A study of Bos taurus with 14 samples.

Results

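Apolipoproteins are the protein coat of the particles that carry fat and cholesterol in blood. This account covers 10 such genes in calf liver, chosen by symbol: APOA1, APOA2, APOA4, APOA5, APOB, APOC3, APOE, APOH, APOM and MTTP, out of 17469 genes in the deposited table. Each symbol matched 1 gene ID, and all 10 passed the filter on low values described below. The livers came from 14 Holstein bull calves, slaughtered on day 90. The DCLI calves (n = 7) were fed 1 g per day of killed cells of Lactobacillus ingluviei strain CR37. The CON calves (n = 7) were the control group, and no additive is named for them. Both groups drank milk replacer at 1.75% of body weight, had starter from day 33, had the milk solution cut to 50% on day 82 and were fully weaned by day 89. The libraries of the supplemented group carry a treatment title, and the design names DCLI as the treated group. The comparison asks whether feeding the dead bacteria goes with a different liver transcriptome.

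The liver builds very low density lipoprotein (VLDL) in the endoplasmic reticulum, where the microsomal transfer protein MTTP loads lipid onto APOB, the large scaffold protein of the particle. High density lipoprotein (HDL) forms on APOA1 and APOA2, while smaller exchangeable proteins such as APOC3, APOE and APOA5 move between particles and set how fast their triglyceride is cleared. Ruminant liver is known for a slow export of triglyceride as VLDL, and most of the cholesterol in cattle plasma is carried in HDL. In mammals APOA5, APOA4, APOC3 and APOA1 form a gene cluster. In RefSeq's gene annotation of the cattle assembly ARS-UCD2.0, used here for names and neighbours only, these 4 genes follow each other in that order on chromosome 15, with ZPR1 next to APOA5.

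Levels are given as TPM, a share of all transcripts in a library that is scaled for transcript length and can be compared between genes. The table reports each library to a fixed total, so sequencing depth is unknown, and no counting interval can be given. Together the 10 genes held 4.95% ± 0.667 of all TPM in DCLI calves and 5.13% ± 0.872 in CON calves (mean ± SD, n = 7 each). Hepatocyte markers were high in every library, with a summed level of 40164 to 120230 TPM in DCLI calves and 56658 to 109850 TPM in CON calves. DCLI calf 6 lay at the top or the bottom of all 14 calves for 6 of the 10 genes. It stood apart beyond this set as well, with the lowest level of the hepatocyte marker ALB, 20424 TPM. The 20 most abundant genes held 34.2% of TPM in that library, the largest share of all calves. In these bulk samples, fewer cells of a type and less RNA per cell cannot be told apart.

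**Figure D1:**
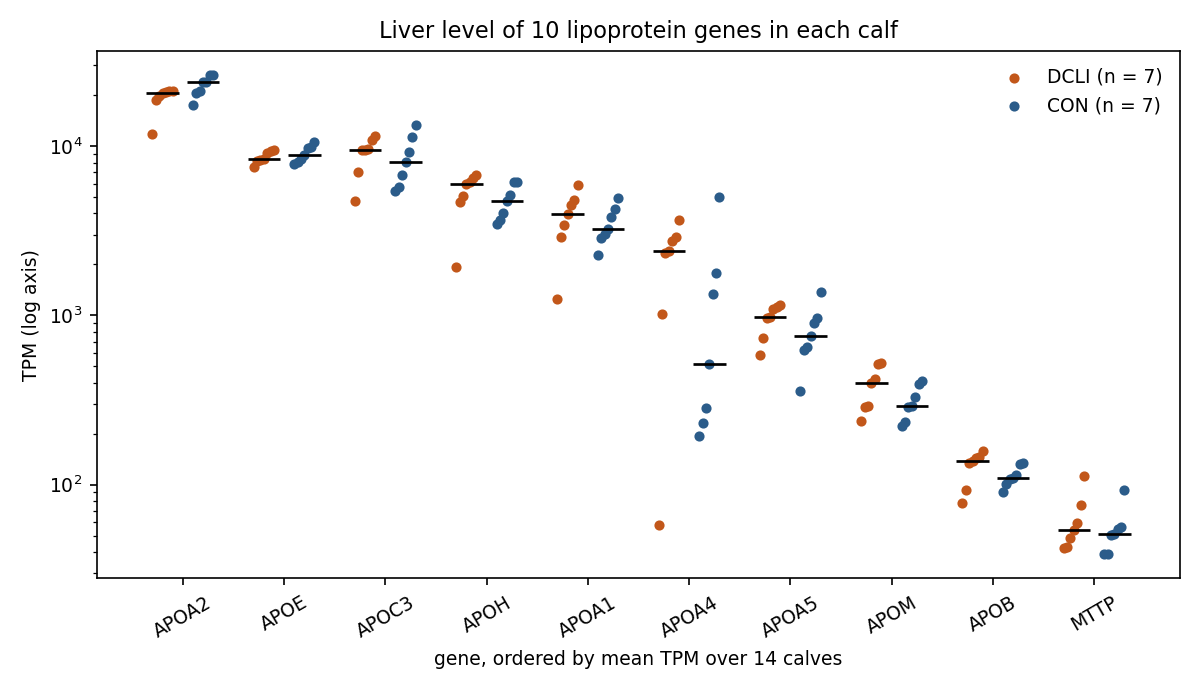
TPM of the 10 genes (log axis) in each of 7 DCLI and 7 CON calves, one point per calf, with a black bar at the group median. APOA2 lies highest and MTTP lowest, and the 2 groups overlap for each gene. APOA4 spreads from 58.0 to 4973.7 TPM.

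APOA2 had the highest mean of the set at 20998 TPM, rank 3 of 17469 genes, followed by APOE at 8818 TPM and APOC3 at 8759 TPM. APOE exceeded APOC3 in 8 of 14 calves, so their order is not settled. APOH averaged 5015 TPM and APOA1 3654 TPM, APOH being the higher in 12 of 14 calves. APOA4 averaged 1749.8 TPM and APOA5 873.7 TPM, but APOA4 was the higher in only 8 of 14 calves. APOM averaged 346 TPM, APOB 119.9 TPM and MTTP 58.3 TPM, which ranked 1564. APOM exceeded APOB in all 14 calves, and APOB exceeded MTTP in 13. APOA1, the main structural protein of HDL, made up 7.94% of the summed TPM of the set in DCLI calves and 6.91% in CON calves. APOA2, its partner on HDL, made up 38.6% in DCLI calves and 44.8% in CON calves.

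The genes differed widely in how far calves of one group varied. The within-group SD of APOA4 was 1.93 on the log2(TPM + 1) scale, above that of 99.9% of the 11905 genes tested, whose median was 0.253. APOE stood at the other end with an SD of 0.146, above 4.85% of genes. Its lowest and highest calves differed 1.42-fold, against 85.8-fold for APOA4. The other 8 genes had SDs between 0.262 for APOA2 and 0.583 for APOA1.

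By limma on log2(TPM + 1), none of the 10 genes passed an adjusted p of 0.05 between DCLI and CON calves. Of the 11905 genes that reached 1 TPM in 7 or more libraries, 0 passed (0%). An unadjusted p under 0.05 was found for 1058 genes (8.89%), 678 of them higher (5.7%) and 380 lower (3.19%) in DCLI calves, and 0 of these were among the 10. The values of the groups did not overlap for 8 of all genes (0.0672%) and for 0 of the 10. The estimates were positive for 8 of the 10 and negative for APOA2 and APOE, with a median of 0.12, against 48.8% positive and a median of -0.01 over all genes. The median of the 10 was 0.07 without CON calf 5, 0.24 without DCLI calf 6 and 0.29 with a weight fitted per library. The smallest adjusted p of the set was 0.644, for APOA2. Fold changes here are on the log2(TPM + 1) scale, as DCLI over CON, and a p that misses the threshold does not show that the groups were alike.

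**Figure D2:**
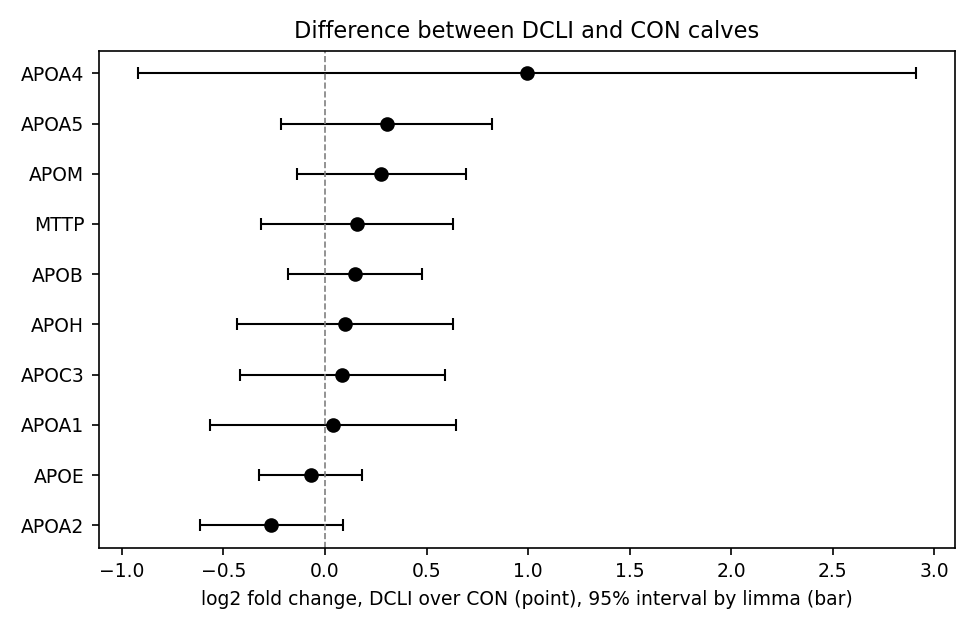
Log2 fold change of each gene, DCLI over CON (point), with its 95% interval by limma (bar, n = 7 each). All 10 intervals include 0. The interval of APOA4, from -0.92 to 2.91, is the widest and that of APOE, from -0.33 to 0.18, the narrowest.

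Among the HDL proteins, APOA2 had 11826 TPM as its lowest, 20489 as its median and 21288 as its highest value in DCLI calves, against 17534, 23876 and 26406 TPM in CON calves. None of the DCLI calves reached the CON median. The log2 fold change was -0.26 ± 0.17 (SE), adjusted p = 0.644 by limma, and an exact two-sided permutation test, which runs through all 3432 ways to divide the calves, gave an unadjusted p of 0.0589. Without DCLI calf 6, which had the lowest value, the log2 fold change was -0.15, and with quantile normalization it was -0.03. APOA1 had 1246, 3945 and 5897 TPM (lowest, median, highest) in DCLI calves and 2283, 3243 and 4958 TPM in CON calves. DCLI calves held both the highest and the lowest APOA1 of the study, calves 6 and 4, and the fold change of 0.04 ± 0.29 (SE) changed sign when any of 5 calves was left out. APOM, which carries sphingosine 1-phosphate on HDL, had 238, 399 and 524 TPM in DCLI calves against 222, 291 and 411 TPM in CON calves. Of the DCLI calves 3 lay above all CON calves, and the log2 fold change was 0.28 ± 0.20 (SE).

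APOA4 is mainly an intestinal protein in humans and is also made by mouse liver. It had 58.0 TPM as its lowest, 2405 as its median and 3680 as its highest value in DCLI calves, against 193, 517 and 4974 TPM in CON calves. The low DCLI value was that of calf 4 and the high CON value that of calf 7. The other 6 DCLI calves had 1015 TPM or more, and 4 of the 7 CON calves had 517 TPM or less. The log2 fold change of 0.99 ± 0.90 (SE) had an adjusted p of 0.755 by limma and an exact permutation p of 0.350, and its interval ran from a 0.528-fold to a 7.51-fold level. It was 1.75 without DCLI calf 4, 1.47 without CON calf 7 and 0.69 without CON calf 5. With a weight fitted per library the estimate was 1.86 (adjusted p = 0.123 by limma). The main transcript, NM_001037480, held at least 84.1% of APOA4 TPM in each calf, with a median of 99.6%. Enterocyte markers summed to 21.1 to 37.5 TPM in DCLI calves and 12.2 to 33.2 TPM in CON calves. Of the 8 such markers in the table SI, LCT, CDX1 and CDX2 averaged below 1 TPM in both groups. CDH17, the intestinal cadherin, had the highest mean of the 8 in both groups, at 17.9 ± 4.18 TPM in DCLI calves and 10.5 ± 5.77 TPM in CON calves (SD, n = 7 each). Its log2 fold change was 0.82 ± 0.25 (SE), with an unadjusted p of 0.00507 and an adjusted p of 0.411 by limma. MEP1B averaged 5.98 TPM in DCLI calves and 4.80 TPM in CON calves, VIL1 3.95 TPM in DCLI calves and 5.16 TPM in CON calves, and FABP2 2.20 TPM in DCLI calves and 2.72 TPM in CON calves, with FABP2 listed at 0 in calves of both groups. The part of intestinal cells in the APOA4 values was not tested.

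Among genes that act on triglyceride clearance, APOA5, a liver protein that promotes lipolysis by lipoprotein lipase, had 582, 981 and 1150 TPM (lowest, median, highest) in DCLI calves, against 358, 759 and 1370 TPM in CON calves. The DCLI range lay wholly inside the CON range, and the log2 fold change was 0.30 ± 0.24 (SE). It was 0.13 without CON calf 5, 0.45 without CON calf 7 and 0.50 with library weights. APOC3, an inhibitor of lipoprotein lipase and of remnant uptake, had 4752, 9513 and 11445 TPM in DCLI calves and 5435, 8109 and 13417 TPM in CON calves. Its log2 fold change was 0.08 ± 0.24 (SE), and -0.01 without CON calf 2.

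APOE is the ligand by which remnants bind their receptors on liver cells, and macrophages make it as well as hepatocytes. It had 7476, 8422 and 9470 TPM in DCLI calves, against 7816, 8892 and 10599 TPM in CON calves. Its log2 fold change was -0.07 ± 0.12 (SE), with a 95% interval that reached a 0.798-fold level at the low end and a 1.14-fold level at the high end. Markers of Kupffer cells and other macrophages were lower in DCLI calves for 15 of 16 measured genes, with a summed level of 1896 to 5452 TPM, against 2194 to 9086 TPM in CON calves, highest in CON calf 2. That calf had 8359 TPM of APOE, below the CON median. The mean of these markers and APOE were correlated over the 14 calves with r = 0.39 (permutation p = 0.173, adjusted 0.286) and rho = 0.50 (permutation p = 0.0683). The part of these cells in the APOE values was not tested. APOH, or beta-2 glycoprotein I, binds anionic phospholipid and is found partly on lipoproteins. It had 1943, 5965.5 and 6740 TPM in DCLI calves, against 3453, 4725 and 6144 TPM in CON calves. DCLI calf 6 lay below every other calf, and the log2 fold change of 0.10 ± 0.25 (SE) was 0.32 without it and 0.02 without DCLI calf 1.

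The assembly pair stood lowest. APOB had 78.2, 137 and 157 TPM in DCLI calves (lowest, median, highest), against 89.9, 109 and 134 TPM in CON calves. Of the 7 DCLI calves 5 lay above the highest CON calf, while calf 6 lay below the lowest, and the log2 fold change was 0.15 ± 0.16 (SE), or 0.26 without calf 6. MTTP had 42.1, 54.0 and 112 TPM in DCLI calves and 38.6, 51.2 and 92.7 TPM in CON calves. The highest DCLI value was again calf 6, and the log2 fold change of 0.16 ± 0.22 (SE) was 0.00 without it. For APOB and MTTP over the 14 calves r was -0.17 (permutation p = 0.558, adjusted 0.620) and rho was 0.11 (permutation p = 0.702). The sign of r rested on DCLI calf 6: r was 0.29 without it, and 0.30 without DCLI calf 6 and CON calf 5, the 2 farthest from the median of APOB.

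**Figure D3:**
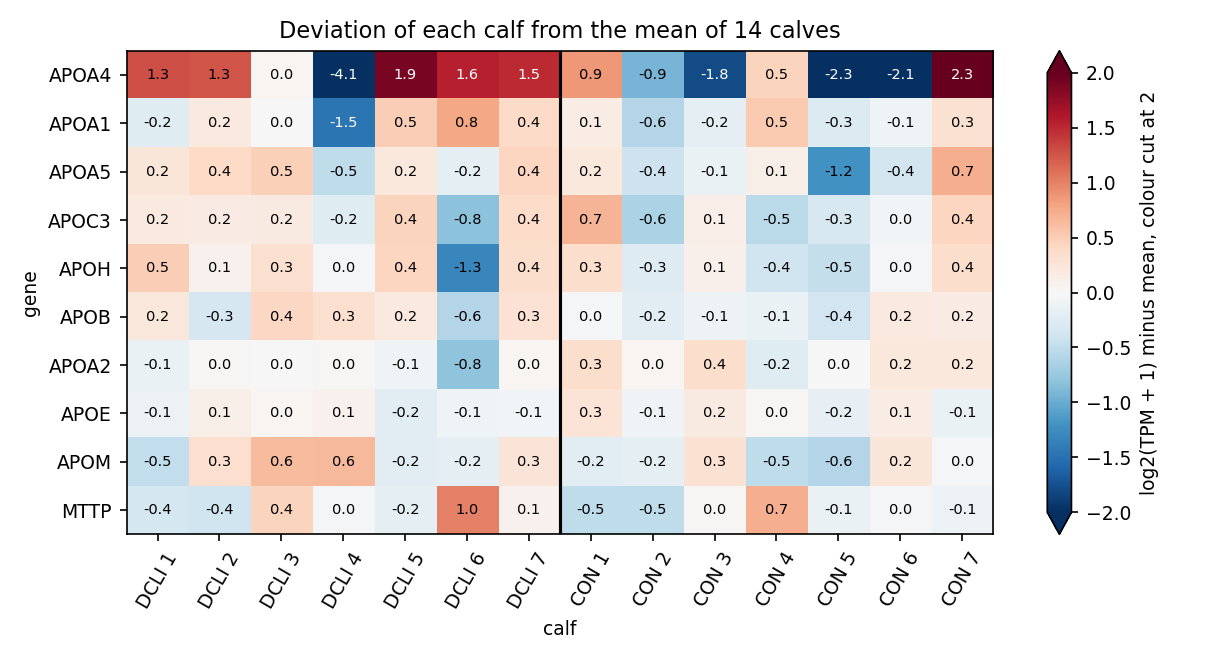
Deviation of each calf from the mean of 14 calves, in log2(TPM + 1), with DCLI calves left of the line and CON calves right of it; numbers are the values and the colour is cut at 2. APOA4 carries the strongest deviations, and DCLI calf 6 stands low for APOC3, APOH, APOB and APOA2 and high for MTTP.

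Calves with much APOA4 mRNA also had much APOA1 and APOA5 mRNA. Of 10 pairs tested over the 14 calves, 2 passed after adjustment by both measures. APOA1 and APOA4 were correlated with r = 0.81 (permutation p = 0.00054, adjusted 0.0054) and rho = 0.75 (permutation p = 0.00301, adjusted 0.0253). For APOA4 and APOA5 r was 0.77 (permutation p = 0.00114, adjusted 0.0057) and rho was 0.71 (permutation p = 0.00546, adjusted 0.0253). Without the 2 calves farthest from the median of the first gene, the r of these pairs was 0.66 and 0.71. Within DCLI calves it was 0.93 and 0.69, and within CON calves 0.67 and 0.88. DCLI calf 4 had the lowest APOA1 and the lowest APOA4 of all calves, and the pooled r of that pair was 0.67 without it. The r within DCLI calves was not examined without calf 4. APOC3, the remaining gene of the cluster, had r = 0.36 with APOA4 and 0.13 with APOA1 over all calves. Without DCLI calf 6 these were 0.59 and 0.44. The r with APOA4 was 0.62 without DCLI calf 6 and CON calf 2, the 2 farthest from the median of APOC3. It was 0.28 without DCLI calf 4 and CON calf 5, the 2 farthest from the median of APOA4. The r with APOA1 was 0.43 without DCLI calves 4 and 6, the 2 farthest from the median of APOA1. APOC3 and APOA5 had r = 0.59 (adjusted permutation p = 0.0811) and rho = 0.70. A difference between these correlations was not tested. Many genes outside the cluster also followed APOA4: of 11904 other genes, 1.22% reached an r of 0.79 with it and 1.75% an r of 0.76.

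All 45 pairs of the set were then examined, a step chosen after the data were seen, and 1 passed by both measures. Adjusted over this wider family, the APOA1-APOA4 and APOA4-APOA5 relations passed by r (adjusted permutation p = 0.0108 and 0.0119) and missed by rho (0.0621 and 0.0629). The pair that passed, APOC3 and APOH, had the closest relation of the 45, with r = 0.88 (permutation p = 2e-05, adjusted over 45 pairs 0.0009) and rho = 0.91 (permutation p = 4e-05, adjusted 0.0018). It was 0.94 within DCLI calves, 0.92 within CON calves, 0.88 without the 2 calves farthest from the median and between 0.87 and 0.91 with 1 calf left out. Genes outside the set came closer to each: TVP23B had r = 0.94 with APOC3, and HADH had r = 0.96 with APOH. The share of all genes that reach an r of 0.88 with either gene was not examined. APOB and APOH had r = 0.77 (adjusted permutation p = 0.0119) and rho = 0.64, which missed the threshold after adjustment (0.127). The r was 0.52 without DCLI calf 6 and CON calf 5, the 2 farthest. APOA2 and APOH had r = 0.71 with all calves and 0.22 without DCLI calf 6, and APOA2 and MTTP had r = -0.69 with all calves and -0.37 without it, so both pooled values rested on that calf. Within the CON calves, which do not include it, r was 0.83 and -0.61 for these pairs.

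**Figure D4:**
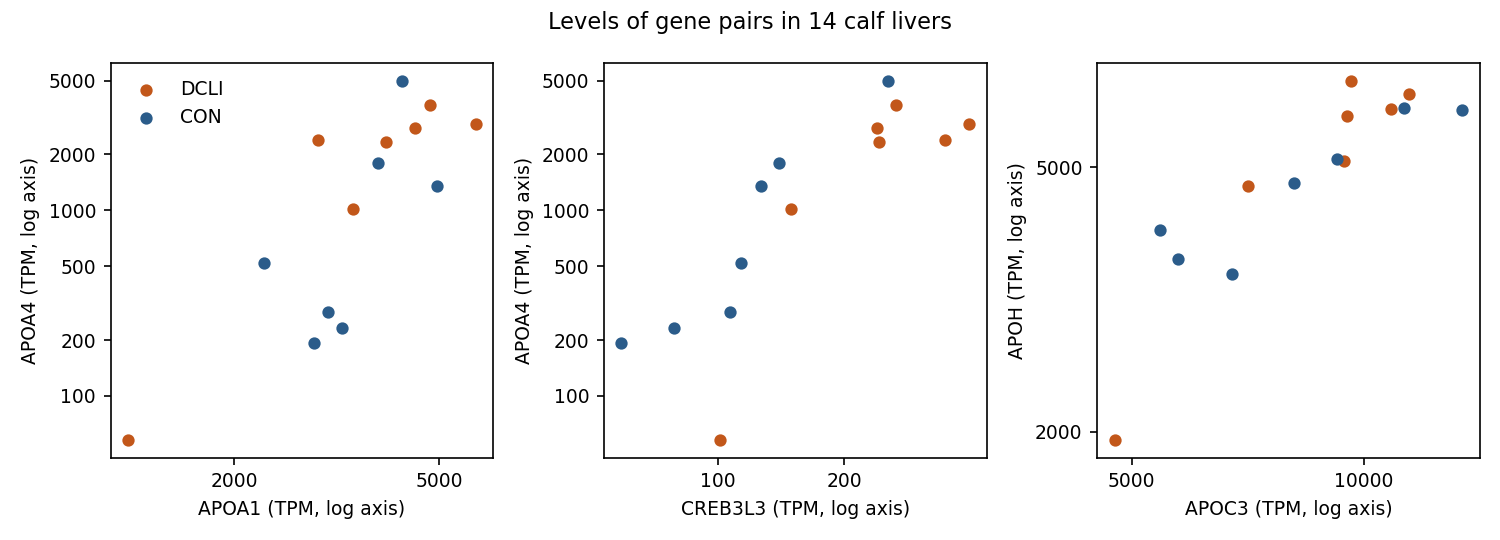
TPM in 14 calves (log axes; one point per calf, DCLI and CON by colour) for APOA1 with APOA4 (r = 0.81), CREB3L3 with APOA4 (r = 0.84) and APOC3 with APOH (r = 0.88). In each panel both groups hold low and high calves.

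Levels of HP mRNA, which encodes haptoglobin, a protein that rises in the acute phase in cattle, ran from 138 to 29341 TPM in DCLI calves and from 46.6 to 21480 TPM in CON calves. The 10 genes were set against HP, a step chosen after the data were seen. Of the 10 genes, APOC3 and APOH were correlated with HP after adjustment over the 10, with r = -0.85 and -0.68 (adjusted permutation p = 0.0011 and 0.0262) and rho = -0.89 and -0.76. The share of all genes that reach such an r with HP was not examined. The APOC3 relation had r = -0.83 within DCLI calves and -0.87 within CON calves. Without the 2 calves farthest from the median of each gene, r was -0.91 for APOC3 and -0.65 for APOH. DCLI calf 6 had the highest HP of all.

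The regulators listed for apolipoprotein genes numbered 29, all measured, of which 0 passed the adjusted threshold. At an unadjusted p under 0.05, 7 were higher and 0 lower in DCLI calves, where 5.7% of all genes were higher and 3.19% lower. The median log2 fold change was 0.15, against -0.01 over all genes. CREB3L3 encodes a transcription factor held in the endoplasmic reticulum membrane that activates Apoa4 in mouse liver. It had 101, 243 and 398 TPM in DCLI calves (lowest, median, highest), against 58.7, 114 and 255 TPM in CON calves, and its level was the highest of the list. Its log2 fold change was 0.99 ± 0.32 (SE), adjusted p = 0.420 by limma. HNF4G, a nuclear receptor related to HNF4A, stood 0.41 ± 0.15 higher and PROX1, a homeobox factor of hepatocytes, 0.36 ± 0.14, with adjusted p of 0.472 and 0.479 by limma.

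APOA4 was set against each of the 29 regulators, a step chosen after the data were seen. Of the 29 pairs 6 passed after adjustment by both r and rho, those with CREB3L3, PPARA, ESRRA, FOXA2, PPARGC1A and HNF4G. An r with APOA4 as high as that of PPARA was reached by 1.22% of all genes, and of ESRRA by 1.75%. For FOXA2, PPARGC1A and HNF4G the shares were 3.09%, 3.23% and 3.5%. CREB3L3 had the highest r, 0.84 (permutation p = 0.00019, adjusted over 29 pairs 0.00551), with rho = 0.91 (permutation p = 3e-05, adjusted 0.00087). It was 0.86 within DCLI calves, 0.93 within CON calves, 0.87 without the 2 calves of most extreme APOA4 and between 0.82 and 0.90 with 1 calf left out. CREB3L3 ranked 60 of 11904 genes by r with APOA4, so an r this high was reached by 0.504% of genes. PPARA, the fatty acid receptor of liver, had r = 0.79 (adjusted permutation p = 0.0129) and rho = 0.76. ESRRA, an orphan nuclear receptor, had r = 0.76 (adjusted permutation p = 0.0158) and rho = 0.86. Without the 2 most extreme calves r was 0.79 for PPARA and 0.81 for ESRRA. HNF4A, the master regulator of hepatocyte genes, had r = 0.06. CON calf 7 had both the highest APOA4 of all calves and the highest CREB3L3 of the CON calves, and CON calf 5 was lowest of the CON calves in both.

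The other steps of lipoprotein metabolism were read from lists of related genes. Beside each list count stand 5.7% of all genes higher and 3.19% lower in DCLI calves at an unadjusted p under 0.05, and 48.8% positive. Cell markers also differed in direction: estimates were positive for 8 of 10 hepatocyte markers (median 0.19), 1 of 16 macrophage markers (median -0.40) and 0 of 12 T and NK cell markers (median -0.51). For cholangiocytes 1 of 5 markers past the filter was positive (median -0.55), and 3 were lower at an unadjusted p under 0.05. With SOX9 and CFTR, which averaged below 1 TPM and missed the filter, 3 of 7 cholangiocyte markers were higher in DCLI calves. The part of these cell types in the medians of the 10 genes and of the lists was not tested. In VLDL assembly and secretion 23 of 23 genes were measured and 0 passed the adjusted threshold. At an unadjusted p under 0.05, 5 were higher and 1 lower in DCLI calves, and 19 of 23 estimates were positive, with a median of 0.22. SAR1B, the small GTPase of the coat that carries lipoproteins out of the endoplasmic reticulum, had 28.7, 30.8 and 49.6 TPM in DCLI calves (lowest, median, highest), against 18.4, 22.0 and 35.5 TPM in CON calves. Its log2 fold change was 0.54 ± 0.16 (SE), adjusted p = 0.409 by limma. SEC23A, a subunit of the same coat, stood 0.28 ± 0.11 higher, and TMEM41B, a lipid scramblase of the endoplasmic reticulum, stood 0.30 lower (-0.30 ± 0.09). P4HB, the protein disulfide isomerase that forms the MTTP heterodimer, had the highest level of the list, at 1160 ± 231 TPM in DCLI calves and 1006 ± 180 TPM in CON calves (SD, n = 7 each).

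**Figure D5:**
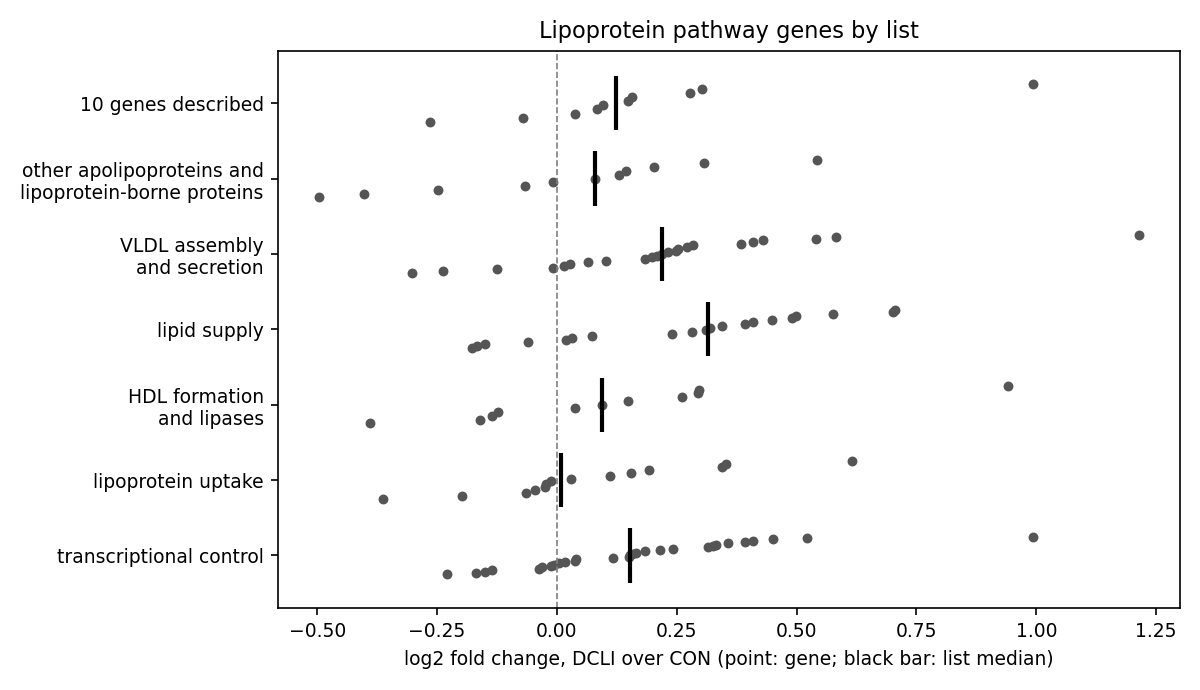
Log2 fold change of each gene, DCLI over CON, for the 10 genes described and 6 lists of the pathway (one point per gene, black bar at the list median, dashed line at 0). Medians run from 0.01 for lipoprotein uptake to 0.32 for lipid supply, and 0 genes passed the adjusted threshold.

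Genes that supply lipid to nascent particles had the highest list median, 0.32, with 20 of 22 genes past the filter, 16 of them positive, 5 higher and 0 lower at an unadjusted p under 0.05, and 0 past the adjusted threshold. FITM2, a membrane protein of lipid droplet formation, had 5.84, 8.85 and 11.1 TPM in DCLI calves and 3.68, 4.37 and 9.13 TPM in CON calves, a log2 fold change of 0.70 ± 0.18 (SE, adjusted p = 0.365 by limma). LPIN2, a phosphatidate phosphatase, and GPAM, the mitochondrial acyltransferase that begins glycerolipid synthesis, stood 0.41 ± 0.12 and 0.39 ± 0.13 higher. CES1, a carboxylesterase, was the most abundant, at 679 ± 224 TPM in DCLI calves and 562 ± 231 TPM in CON calves (SD). ACSL1, an acyl-CoA synthetase, was among the 3 genes most like APOA4 over the calves (r = 0.92).

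Among other apolipoproteins and proteins borne on lipoproteins 11 of 16 were measured, with 6 positive and 5 negative estimates, a median of 0.08 and 0 genes past either threshold. That median was -0.03 without DCLI calf 1 and 0.17 without CON calf 7. APOC2, the activator of lipoprotein lipase, was the most abundant, at 4391 ± 1295 TPM in DCLI calves and 4535 ± 1128 TPM in CON calves (SD, n = 7 each). It was also the gene most like APOA1 over the 14 calves (r = 0.91). APOF stood 0.54 ± 0.29 higher, APOC4, a neighbour of APOE, stood 0.25 lower (-0.25 ± 0.16) and APOD 0.50 lower (-0.50 ± 0.33). APOD averaged 1.25 TPM in DCLI calves and 2.18 TPM in CON calves.

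Of genes of HDL formation and lipases 11 of 15 passed the filter, with 2 higher and 0 lower at an unadjusted p under 0.05 and a median of 0.09, which was 0.03 without CON calf 5 and 0.20 without DCLI calf 6. The lipase LIPG missed the filter, at 3.54 ± 3.51 TPM in DCLI calves and 0.18 ± 0.29 TPM in CON calves (SD). With no filter on low values, 0 genes were called. ANGPTL4, an inhibitor of lipoprotein lipase that fasting induces, had 18.8, 55.9 and 161 TPM in DCLI calves, against 16.2, 29.3 and 62.2 TPM in CON calves, with the highest value in DCLI calf 6. Its log2 fold change was 0.94 ± 0.44 (SE, adjusted p = 0.557 by limma). BMP1, the protease that trims pro-APOA1, stood 0.26 ± 0.10 higher, and LIPA, the lysosomal acid lipase, 0.39 lower (-0.39 ± 0.22), highest in CON calf 2. LIPC, hepatic lipase, had the highest level, at 188 ± 49.6 TPM in DCLI calves and 151 ± 37.9 TPM in CON calves (SD).

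Of the lipoprotein uptake genes 14 of 17 passed the filter, 7 positive and 7 negative, with a median of 0.01 and 3 higher at an unadjusted p under 0.05. That median was 0.10 without DCLI calf 6. LRP5, a lipoprotein receptor-related protein that also serves Wnt signalling, had 55.9, 67.5 and 74.3 TPM in DCLI calves, against 27.8, 44.8 and 71.1 TPM in CON calves (0.61 ± 0.16 SE, adjusted p = 0.365 by limma). LRP1, the remnant receptor, stood 0.35 ± 0.11 higher and SDC1, a heparan sulfate proteoglycan that binds remnants, 0.34 ± 0.15. NPC2, a lysosomal cholesterol carrier, was the most abundant of the list, at 160 ± 41.5 TPM in DCLI calves and 194 ± 87.6 TPM in CON calves (SD).

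The genes most like each of the 10 over the 14 calves were found by Pearson r on log2(TPM + 1) among the 11904 other genes tested, as a description. For APOA4 they were ABHD1, LRRC73 and ACSL1 (r = 0.94, 0.93 and 0.92). For APOA1 they were APOC2, MIOX and COQ7 (0.91, 0.90 and 0.89), and for APOA5 they included SLC6A11 and FCGRT (0.91 and 0.90). For APOA2 they included RARRES2 and LOC511240 (0.94 and 0.93), and APOC3 was most like TVP23B, DHRS7 and LOC511498 (0.94, 0.93 and 0.93). APOH was most like HADH, SERPIND1 and ALB (0.96, 0.95 and 0.94). For APOB they included MPDZ and ENPEP (0.93 and 0.92). APOE was most like SEC31B, TMED8 and AGFG2 (0.90, 0.86 and 0.86), APOM most like TM4SF5, NDUFB11 and ZNF775 (0.87, 0.87 and 0.86), and MTTP most like IL17B, SMPDL3A and TCAIM (0.86, 0.85 and 0.85). Of these, SEC31B, TMED8, ZNF775 and IL17B averaged only 2.75, 1.52, 2.24 and 2.53 TPM, near the filter. How high the best r among 11904 unrelated genes would be was not tested. The mean of the 10 genes, each scaled to equal variance, had among its most similar genes KHK, PPFIBP2, SEMA4B and ZPR1 (0.95, 0.91, 0.91 and 0.90), the last being the neighbour of APOA5.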

How the data were processed

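Liver RNA of each calf was selected for poly(A) and read on a DNBSEQ platform, per the labels' protocols. Reads were filtered with SOAPnuke 1.5.6, per the labels, and RSEM 1.3.1 and DESeq2 1.4.5 are named in the submitters' processing notes. For the aligner and build, the sources used here give no name. The authors deposited TPM for 49721 transcripts of 17469 genes, and the columns summed to between 999997.1 and 1000000.3, so depth is unknown and a very abundant transcript lowers all other values. TPM was summed per gene ID. Genes that reached 1 TPM in 7 or more libraries were tested as log2(TPM + 1) with limma 3.58.1 in R 4.3.3 (variance trend, two-sided, no covariate), Benjamini-Hochberg adjusted over all 11905 genes at 0.05. Single genes also had an exact permutation test, and correlations 100000 resamples. The fit was tested on simulated data. The genes, gene lists and tests were chosen with earlier results of these data known. Beside the 10 genes, the text names from each list the 3 genes of lowest unadjusted p and the most abundant gene, and any other is named after its values were seen. Alternatives tried were other pseudocounts, filters and scalings, a replicate block, library weights, the main transcript alone and leaving out each calf. Some genes that these rules take are not reported here.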

Additional observations from a re-analysis of the deposited data

Results flagged for a closer look

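In 68 groups of 7 values examined, 6 held a calf whose gap to the nearest other calf of its group exceeded 0.568 of the group's range. Chance gives such a gap in about 1 of 20 groups if values are normally distributed. The values were taken without a log scale, and their distribution was not tested. In DCLI calf 6 APOA2 was 11826 TPM, with the next DCLI calf at 18782 TPM, and APOH was 1943 TPM, with the next at 4681 TPM. In CON calf 7 APOA4 was 4974 TPM (next 1791), CREB3L3 255 TPM (next 140) and FITM2 9.13 TPM (next 5.24). In CON calf 4 MTTP was 92.7 TPM (next 56.2).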

How the results depend on the processing

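The count of genes called was 1388 with library weights, which also moved the median of all genes to 0.08, and 12 without CON calf 7, the range with 1 calf left out being 0 to 12. None of the 10 genes was called in any of the 25 settings. With the replicate block 1 gene was called (FBXO32, adjusted p 0.00687 by limma, named after its value was seen). Whether the numbers pair the calves was not tested. In deviations of each gene from its group mean, same-numbered calves correlated between -0.18 and 0.45. By this measure 3 of 7 DCLI calves and 2 of 7 CON calves matched their own number best. With 1 calf left out log2 fold changes lay between -0.088 and 0.286 (APOA1), -0.013 and 0.228 (APOC3) and 0.0036 and 0.292 (MTTP). Without CON calf 2 and DCLI calf 6 together, chosen after the data were seen, it was -0.18 for APOA1 and -0.068 for MTTP. In all, 8 of 250 estimates changed sign. With library weights the list medians were 0.36 for VLDL assembly and 0.24 for HDL formation. The APOA1-APOA4 and APOA4-APOA5 relations passed the threshold also as deviations from group means and after rescaling without the 20 most abundant genes. Depth could not be weighed, because TPM keeps none.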
